A study of Mus musculus with 7 samples.

Results

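Dcdc2a and 8 further genes of the doublecortin family (Dcdc2b, Dcdc2c, Dcdc5, Dcx, Dclk1, Dclk2, Dclk3 and Rp1) were followed in RNA of tissue dissected around the ventricles of the mouse brain. The 9 were chosen by their symbol in each library's count table, out of 32531 symbols listed, and 7 of them had enough counts to be tested among 17375 tested genes. Ribosome-bound RNA was purified with antibodies to EGFP from adult mice (Dcdc2a-TRAP, animal line ES2575), in which a ribosomal protein fused to EGFP (EGFP/Rpl10a) is made under Dcdc2a control by the line's name, and gave 3 libraries (IP 1, IP 3 and IP 4). The comparison was total RNA of the dissected tissue of the same line, which carries the same transgene, in 4 libraries (Input 1 to Input 4). The labels give no age beyond adult, no sex and no line without the tag, and do not say whether animals were pooled.

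Doublecortin-domain proteins bind microtubules and steady them, and the family is named after Dcx, the protein of migrating young neurons whose loss in humans disturbs the layering of the cortex. Dcdc2 lies along cilia, and human DCDC2 has been linked to dyslexia, hearing loss and a ciliary disease of kidney and liver. Ependymal cells, the ciliated lining of the ventricles, are the cells the study set out to profile through Dcdc2a. The Dclk proteins join doublecortin domains to a protein kinase of the calmodulin-dependent type, and Rp1 organises the axoneme of photoreceptors.

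The start regions of Dcdc2a, of Dcdc2b, named as its relative, and of Dcdc5 are shown because Dcdc2a control defines the tagged cells and the others are family members without a kinase domain to set beside it. Each is the 250 bases before the RefSeq transcript start in GRCm38.p6, with matches to the RFX core in capitals. Both strands were searched for 2 motifs of factor families known to act in motile cilium genes, the RFX core GTTGCC and the forkhead core TGTTTA.
Dcdc2a (chr13:25055754-25056003, plus strand): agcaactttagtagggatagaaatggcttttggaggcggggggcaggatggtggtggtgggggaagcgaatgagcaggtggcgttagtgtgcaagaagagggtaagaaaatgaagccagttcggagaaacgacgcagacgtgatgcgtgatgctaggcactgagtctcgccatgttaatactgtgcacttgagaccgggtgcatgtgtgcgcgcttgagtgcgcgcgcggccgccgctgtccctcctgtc
Dcdc2b (chr4:129614273-129614522, minus strand): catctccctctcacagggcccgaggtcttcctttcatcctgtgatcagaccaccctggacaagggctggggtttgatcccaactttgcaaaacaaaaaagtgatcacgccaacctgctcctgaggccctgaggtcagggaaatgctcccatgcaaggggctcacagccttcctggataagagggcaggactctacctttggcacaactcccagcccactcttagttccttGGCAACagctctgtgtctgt
Dcdc5 (chr2:106080749-106080998, plus strand): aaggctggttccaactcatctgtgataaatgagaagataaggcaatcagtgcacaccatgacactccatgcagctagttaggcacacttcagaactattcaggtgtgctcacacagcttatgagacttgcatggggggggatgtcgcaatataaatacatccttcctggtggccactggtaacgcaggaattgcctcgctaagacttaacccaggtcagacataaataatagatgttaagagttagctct
Dcdc2a held neither motif in these letters. Dcdc2b held 1 RFX core, GGCAAC on the reverse strand, starting 20 bases before the transcript start. Dcdc5 held neither, and its RefSeq start lies inside the longer Dcdc5 model of GENCODE M21. Over 32851 RefSeq promoter windows of the same length, 10.4% held the RFX core and 12% the forkhead core, so a match or its lack is a description of this window. Of the family, 7 genes had an entry (Dclk3 and Rp1 had none), and the RFX core was also found in 1 of 2 windows each of Dcx and Dclk1. The Dcdc2a window had 57.2% G and C and 18 CpG, against a median of 52.4% and 6.0 over all windows.

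The libraries held between 42422439 and 52175180 counts in genes for IP, and between 37203427 and 44754345 for Input, so that 3 counts correspond to 0.0585 to 0.0660 CPM (counts scaled to the library total, with TMM) in IP and no more than 0.0819 CPM in Input, counting error only. IP 1 stood apart. In IP 1, IP 3 and IP 4 the summed CPM of 11 ependymal markers came to 220, 3201 and 2610, against 29.6 to 53.0 in the Inputs. Of these markers 10 rose, among them the chemerin gene Rarres2, which shares 892 exon bases with Lrrc61 (log2 fold 6.25 ± 0.97 SE, edgeR adjusted p = 0.0147), and Tekt1 did not pass (adjusted p = 0.0689). The 7 markers of mural cells and fibroblasts had sums of 80.4, 1160 and 556 CPM in IP 1, IP 3 and IP 4, against 29.6 to 70.7 in Input, and 4 of 7 rose, among them Vtn (log2 fold 4.51 ± 0.78 SE, edgeR adjusted p = 0.0185). Neuron markers remained abundant in IP (sums of 7997 to 9415 CPM, against 10402 to 13247 in Input), and 0 of 10 passed the edgeR test (at an unadjusted p under 0.05, 2 were higher and 2 lower; DESeq2 gave 0). Snap25 stood at 4681 to 6175 CPM in IP and at 6989 to 9235 CPM in Input. Of the oligodendrocyte markers 2 of 8 fell, Mbp among them (log2 fold -0.74 ± 0.19 SE, edgeR adjusted p = 0.0468), and of 7 astrocyte markers Gfap rose (1.10 ± 0.25 SE, 0.0358). Of 5 endothelial markers 1 rose. With all libraries no marker of microglia (6) or choroid plexus (7) passed the edgeR test (1 higher in each at an unadjusted p under 0.05, 0 by DESeq2), with Ttr at a log2 fold of -0.42 ± 0.32 (SE). Reads that fell in more than 1 gene were 1.51% to 2.01% of all reads in the IP tables and 9.33% to 12.9% in the Input tables. The part of these differences in the results below was not tested. Without IP 1, 10 ependymal and 6 mural or fibroblast markers were higher, 2 neuron markers (Snap25 and Gad2) and 4 oligodendrocyte markers lower, 4 astrocyte markers higher and 1 lower, and 2 choroid plexus markers (Clic6 and Otx2) higher. The ependymal calls rest on few libraries: 2 of 11 were called without IP 4 or without Input 1, 1 without Input 2, 0 without Input 3 or Input 4, and 5 with the replicate block. With the block 0 markers of mural cells, astrocytes or oligodendrocytes were called. Among all tested genes 3.64% were called higher and 2.16% lower with all libraries, and 12.5% and 9.55% without IP 1. With the block 0.742% were called in either direction.

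Dcdc2a had 43.5 CPM in IP 1, 411 in IP 3 and 174 in IP 4, against 27.7, 35.6, 73.9 and 44.1 CPM in Inputs 1 to 4. IP 3 and IP 4 were above every Input, and IP 1 lay within the Input range. The mean level was 210 ± 186 CPM over the 3 IP libraries, against 45.3 ± 20.2 CPM over the 4 Input libraries (SD). The log2 fold of IP over Input was 2.21 ± 0.63 (SE), with an adjusted p of 0.0743 in edgeR's quasi-likelihood test, above the threshold of 0.05. Without IP 1 Dcdc2a was called, with log2 fold 2.69 ± 0.41 (SE; adjusted p = 0.00205 in edgeR). In that fit 12.5% of all tested genes were higher and 9.55% lower. DESeq2 on all libraries gave an adjusted p of 0.00178, and called 1396 genes higher and 962 lower. By edgeR Dcdc2a did not pass with the replicate block (adjusted p = 0.101), with total counts (0.0731) or without the low-count filter (0.169). Nor did it pass without IP 4 (0.135), with any 1 Input left out (0.112 to 0.173) or without IP 3 (0.214, log2 fold 1.27). Each IP held more Dcdc2a than the Input of its own number and sequencing lane, by log2 ratios of 0.65, 2.48 and 1.98 for numbers 1, 3 and 4. The gene lies at chromosome 13, 25056004 to 25210706, plus strand (ENSMUSG00000035910.15, mm10), with 13 merged exons that share no base with another model. Fewer cells of a type and less RNA per cell cannot be told apart in such bulk RNA.

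**Figure D1:**
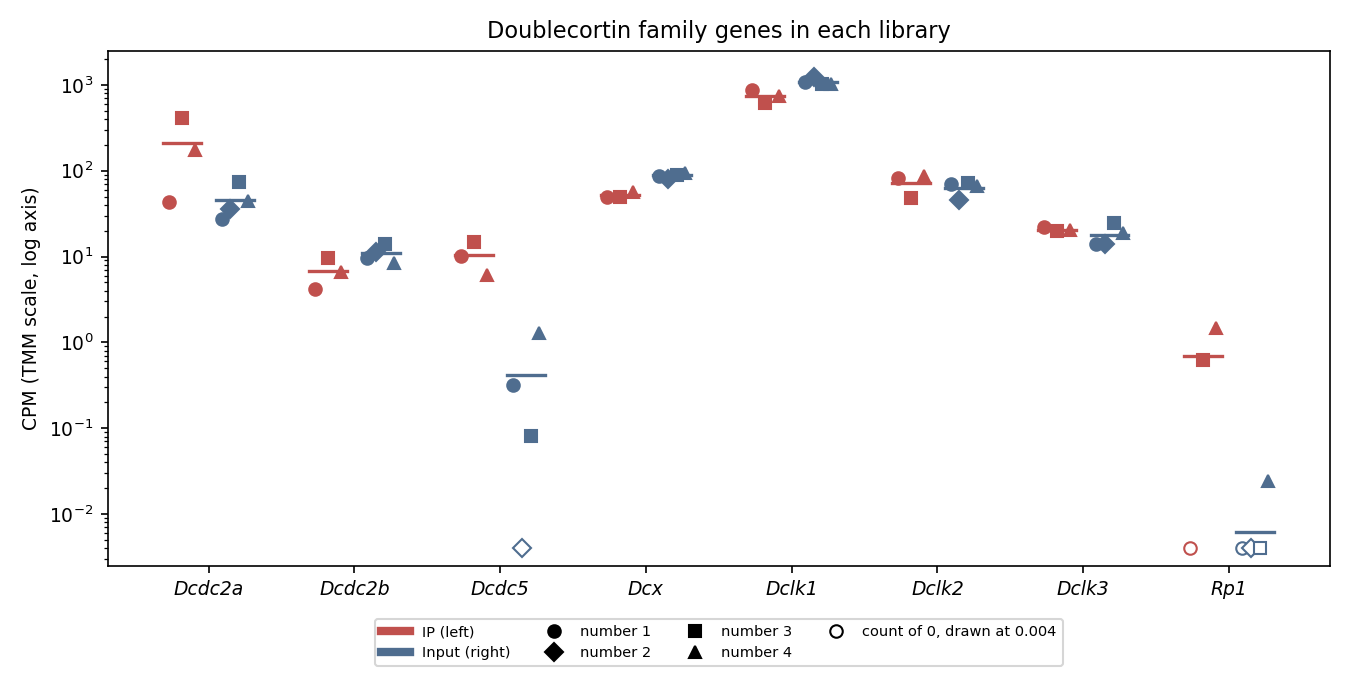
CPM of each family member on a log axis, with IP libraries left and Input libraries right of each gene's position, the symbol shape giving the library number and the bar the group mean. A count of 0 is drawn open at the bottom, and Dcdc2c, at 0 throughout, is left out. Dcdc2a spans 43.5 to 411 CPM within IP, while Dcx spans 49.1 to 56.2.

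Within each library Dcdc2a was then set against the ependymal marker sum, a ratio that library scaling cannot change. In IP 1, IP 3 and IP 4 the log2 ratio of Dcdc2a to the sum came to -2.34, -2.96 and -3.90, against -0.49, 0.27, 0.48 and -0.20 in Inputs 1 to 4. Every IP lay below every Input, and the means differed by -3.08, IP minus Input. The rise of the markers themselves sets this direction for most genes: of 15663 other tested genes with a count in every library, 14099 (90.0%) had every IP ratio below every Input ratio. The separation therefore says nothing particular of Dcdc2a, and no p is read from it. With Foxj1, the transcription factor of the motile cilium programme, as the denominator, the mean log2 ratio was -0.20 ± 0.95 over the IP libraries and 2.49 ± 0.93 over the Input libraries (SD). That difference was -2.69. Foxj1 is among these markers and itself rose (log2 fold 5.03 ± 0.78 SE, edgeR adjusted p = 0.0147). The share of other genes with such a separation was not computed for Foxj1, and nothing particular of Dcdc2a is read from this difference either. Within IP the marker sum varied 14.5-fold from lowest to highest library and Dcdc2a 9.44-fold. In Input, Dcdc2a at 27.7 to 73.9 CPM stood above Foxj1 at 4.33 to 13.0 CPM. These counts are not corrected for gene length (8.284 kb of merged exons for Dcdc2a and 2.623 kb for Foxj1), so they give no order of the genes per kb.

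**Figure D2:**
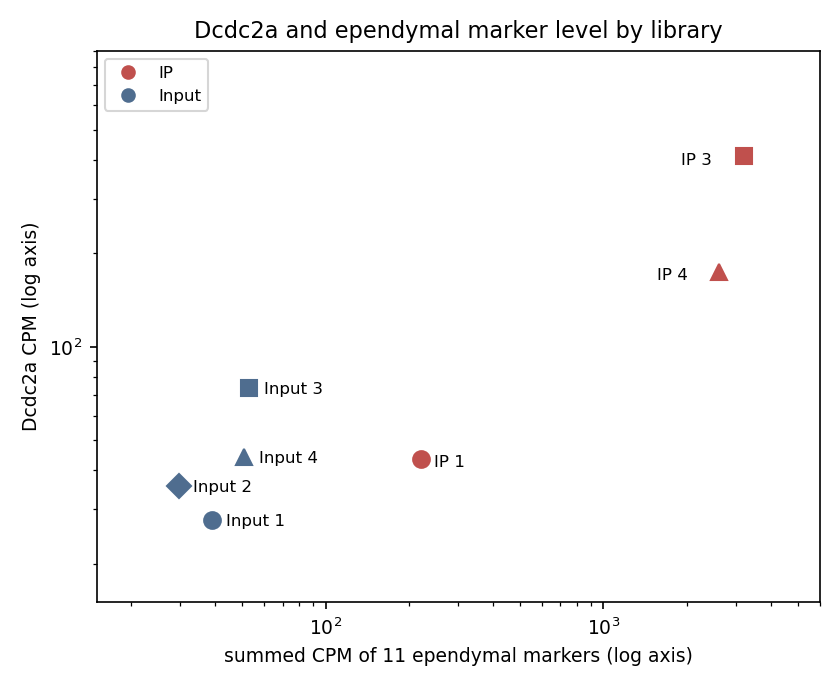
Dcdc2a CPM against the summed CPM of 11 ependymal markers, both on log axes, 1 point for each library, with IP and Input in different colours. IP 1 has 43.5 CPM of Dcdc2a at a marker sum of 220, beside Inputs of 27.7 to 73.9 CPM at sums of 29.6 to 53.0.

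Dcdc2b, a shorter relative of Dcdc2a of little known function, did not pass the test. It had 4.22, 9.53 and 6.55 CPM in IP 1, IP 3 and IP 4, against 9.61, 11.3, 14.2 and 8.49 CPM in Inputs 1 to 4. The groups overlapped only through IP 3 and Input 4. The log2 fold was -0.69 ± 0.41 (SE, edgeR adjusted p = 0.368). Each IP was below the Input of its number, by log2 ratios of -1.18, -0.57 and -0.37 for numbers 1, 3 and 4. Dcdc2b lies at chromosome 4, 129608331 to 129614257, minus strand, and shares 18 exon bases with Tmem234 on the other strand. Dcdc2c (chromosome 12, 28437795 to 28552399, minus strand) had 0 counts in every IP and every Input library. At this depth 3 counts in a library would be 0.0819 CPM or less.

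Dcdc5 had counts of 506, 663 and 315 in IP 1, IP 3 and IP 4, against 13, 0, 3 and 52 in Inputs 1 to 4. On the CPM scale these were 10.1, 14.6 and 6.14 in IP, against 0.319, 0, 0.0819 and 1.28 in Input, and no IP overlapped an Input. Such a full separation upward was seen for 9.55% of the tested genes, and in either direction for 19.9%. The log2 fold of 4.61 ± 1.19 (SE) just missed the threshold (edgeR adjusted p = 0.0520), and Dcdc5 was called without IP 1 (adjusted p = 0.0134), with total counts in place of TMM scaling (adjusted p = 0.0494, where 3.75% of genes were called higher, 1.80% lower and 5.55% in either direction) and by DESeq2 (adjusted p = 0.000260). Dcdc5 passed the filter on low counts through the IP libraries, where it is high, so these calls are not read as a result. Unlike Dcdc2a, it was not low in IP 1. Its IP libraries differed 2.38-fold from lowest to highest, where the ependymal marker sum differed 14.5-fold. GENCODE M21 types Dcdc5 (chromosome 2, 106003336 to 106406151, plus strand) as a transcribed unitary pseudogene and RefSeq as protein coding. Its exons share 84 bases with Dnajc24 and 120 with the noncoding Gm29053, both on the other strand, and since strand handling is not given in the sources at hand the count is uncertain.

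Dcx, the microtubule protein of migrating neuroblasts and young neurons, fell in IP. It had 49.1, 49.9 and 56.2 CPM in IP 1, IP 3 and IP 4, against 86.3, 80.7, 90.1 and 94.9 CPM in Inputs 1 to 4. Every IP lay below every Input, as it did for 10.4% of all tested genes. Means were 51.7 ± 3.86 CPM over the IP libraries and 88.0 ± 6.01 CPM over the Input libraries (SD), and the log2 fold was -0.77 ± 0.19 (SE; adjusted p = 0.0423 in edgeR). Of the 7 tested members Dcx alone was called, where 5.81% of all tested genes were called, 3.64% higher and 2.16% lower. The call was held by a narrow margin. It was lost with the replicate number as a block (edgeR adjusted p = 0.176), with total counts as scaling (0.0571), without a low-count filter (0.0592), and without IP 3, IP 4 or any 1 Input (adjusted p 0.0738 to 0.13), and it held without IP 1 (0.0124). The direction was the same in all of these. Within numbers 1, 3 and 4 the log2 ratios were -0.81, -0.85 and -0.76. Dcx lies at chromosome X, 143855842 to 143933311, minus strand, and no other model overlaps it.

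**Figure D3:**
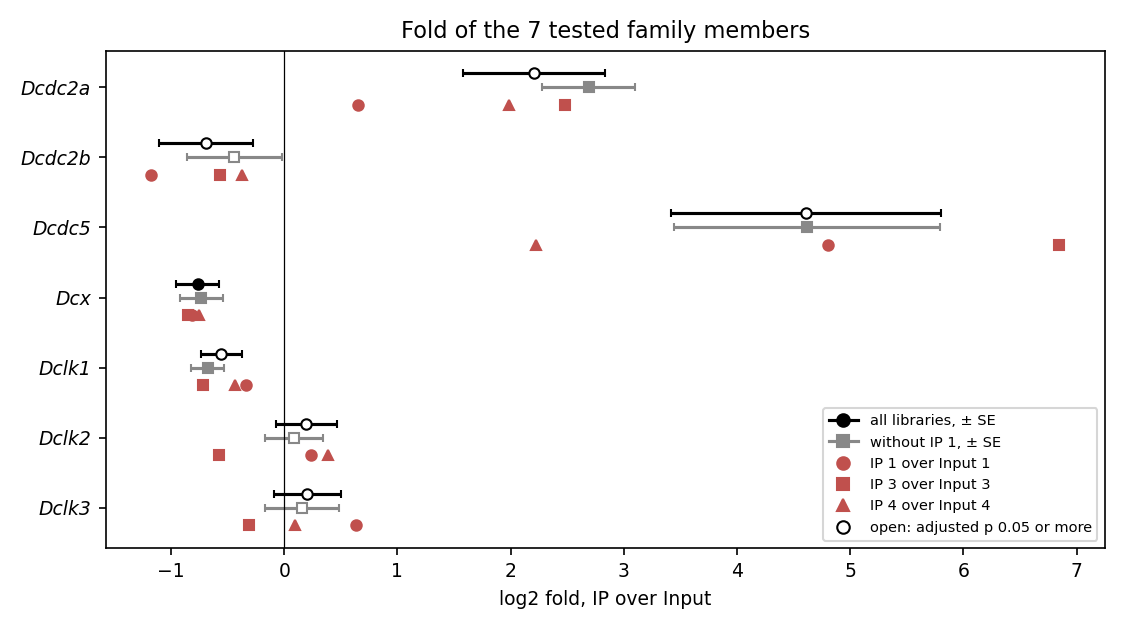
Log2 fold of IP over Input for the 7 tested members, with all libraries (black, ± SE), without IP 1 (grey, ± SE) and for IP over Input of the same number (red). Filled black or grey symbols passed the edgeR adjusted p of 0.05. The 3 ratios of Dcx lie between -0.85 and -0.76, while those of Dcdc5 lie between 2.23 and 6.85.

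Among the kinases, Dclk1 was the most abundant member in both kinds of RNA. It had 864, 618 and 751 CPM in IP 1, IP 3 and IP 4, against 1089, 1249, 1018 and 1016 CPM in Inputs 1 to 4. Every IP was below every Input, as for 10.4% of all tested genes. The log2 fold of -0.56 ± 0.18 (SE) did not pass (edgeR adjusted p = 0.106). It passed without IP 1, at -0.68 ± 0.15 (SE, edgeR adjusted p = 0.00441), where 9.55% of all tested genes were lower. With any other 1 library left out it did not pass (edgeR adjusted p 0.177 to 0.251). Dclk1 (chromosome 3, 55242364 to 55539068, plus strand) is a kinase of neurons and of tuft cells of the gut, made in many forms from more than 1 promoter, which gene counts do not separate. Its exons share 87 bases with the antisense Gm42609 and 27 with Gm21954.

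Dclk2 and Dclk3, neuronal kinases of the same type, showed no difference that passed. Dclk2 had 83.3, 48.4 and 86.7 CPM in IP 1, IP 3 and IP 4, against 70.8, 45.2, 72.0 and 66.2 CPM in Inputs 1 to 4. Its log2 fold was 0.20 ± 0.27 (SE, edgeR adjusted p = 0.728). Dclk3 had 22.03, 19.6 and 20.3 CPM in IP 1, IP 3 and IP 4, against 14.1, 14.1, 24.4 and 19.0 CPM in Inputs 1 to 4. Its log2 fold was 0.20 ± 0.30 (SE, edgeR adjusted p = 0.748). IP 1 and IP 4 were above every Input for Dclk2, and every IP of Dclk3 lay within its Input range. IP 3 was below Input 3 for both, with log2 ratios of -0.57 for Dclk2 and -0.31 for Dclk3, and the ratios of numbers 1 and 4 were positive. Dclk2 lies at chromosome 3, 86786151 to 86920852, minus strand, and Dclk3 at chromosome 9, 111439081 to 111489118, plus strand, both sharing no exon base with another model.

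Rp1 (chromosome 1, 3999557 to 4409241, minus strand), which in humans is a gene of retinitis pigmentosa, was seen in few libraries. It had 0 counts in IP 1, 28 in IP 3 and 76 in IP 4, against 0, 0, 0 and 1 in Inputs 1 to 4. IP 3 and IP 4, at 0.616 and 1.48 CPM, were above every Input, and IP 1 allowed at most 0.0600 CPM. Summed over libraries, 104 IP counts against 1 Input count gave a ratio of 116 in CPM terms, with an exact conditional 95% interval of 20.3 to 4606 that covers counting error only and not the spread between libraries. Rp1 did not pass the filter on low counts with all libraries. Without that filter its log2 fold was 6.29 (edgeR adjusted p = 0.138), and without IP 1, the IP library with 0 counts, it passed the filter through IP 3 and IP 4, where it is high, so its call there is not read as a result.

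As a family the members did not move one way. In the fit with all libraries 0 of the 7 tested members were called higher and 1 lower by edgeR. At an unadjusted p under 0.05 these were 2 and 2, and DESeq2 called 2 higher and 1 lower. The median log2 fold of the 7 was 0.20, beside 0.06 for all tested genes. Dcdc5 is in these numbers through the group where it is high, and its calls are not read as a result. Without IP 1, Dcdc2a was called higher and Dcx and Dclk1 lower, where 12.5% of all tested genes were higher and 9.55% lower (22.1% in all). Dcdc5 and Rp1, also called higher there, were set aside. With the replicate block 0 were called, where 0.553% of all tested genes were higher and 0.190% lower (0.742% in all). At an unadjusted p under 0.05 2 members were higher and 1 lower with the block, and DESeq2 was run without a block. Input 2 has no IP of its number and adds nothing to the contrast in the block fit.

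Levels between members were compared as CPM per kilobase of merged exons in GENCODE M21, an approximation because the sources used here do not give the authors' gene models. In IP, Dclk1 stood at 48.6 ± 8.05 CPM per kb (SD, n = 3) and Dcdc2a came next in the mean at 25.3 ± 22.5, with a range of 5.26 to 49.6 that overlapped both Dclk1 and Dclk2. Dclk2 at 6.90 ± 2.01, Dclk3 at 6.87 ± 0.42, Dcdc2b at 4.94 ± 1.94 and Dcx at 4.09 ± 0.31 CPM per kb followed in IP, neighbours in this order overlapping in their libraries. Dcdc5 at 1.14 ± 0.47 and Rp1 at 0.0568 ± 0.0605 CPM per kb lay below them. In Input, Dclk1 stood at 71.5 ± 7.16 CPM per kb (SD, n = 4), apart from all others. Dcdc2b at 7.96 ± 1.81, Dcx at 6.96 ± 0.48, Dclk2 at 6.02 ± 1.18, Dclk3 at 5.96 ± 1.63 and Dcdc2a at 5.47 ± 2.44 CPM per kb overlapped in Input, and Dcdc5 was at 0.0465 ± 0.0651. Dcdc2a was thus second of the 9 by mean level in IP and the sixth in Input.

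The make-up of the family followed. Dclk1 made up 66.4%, 35.5% and 51.6% of the summed CPM per kb in IP 1, IP 3 and IP 4, against 61.7% to 74.5% in Input. Dcdc2a made up 6.18%, 43.7% and 22.1% in IP 1, IP 3 and IP 4, against 3.35%, 3.92%, 8.26% and 5.43% in Inputs 1 to 4. IP 1 had a Dcdc2a share inside the Input range and in IP 3, per kb, Dcdc2a exceeded Dclk1. The sum itself was 98.0 ± 14.5 CPM per kb over the IP libraries and 104 ± 5.70 over the Input libraries (SD), and these ranges overlapped.

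**Figure D4:**
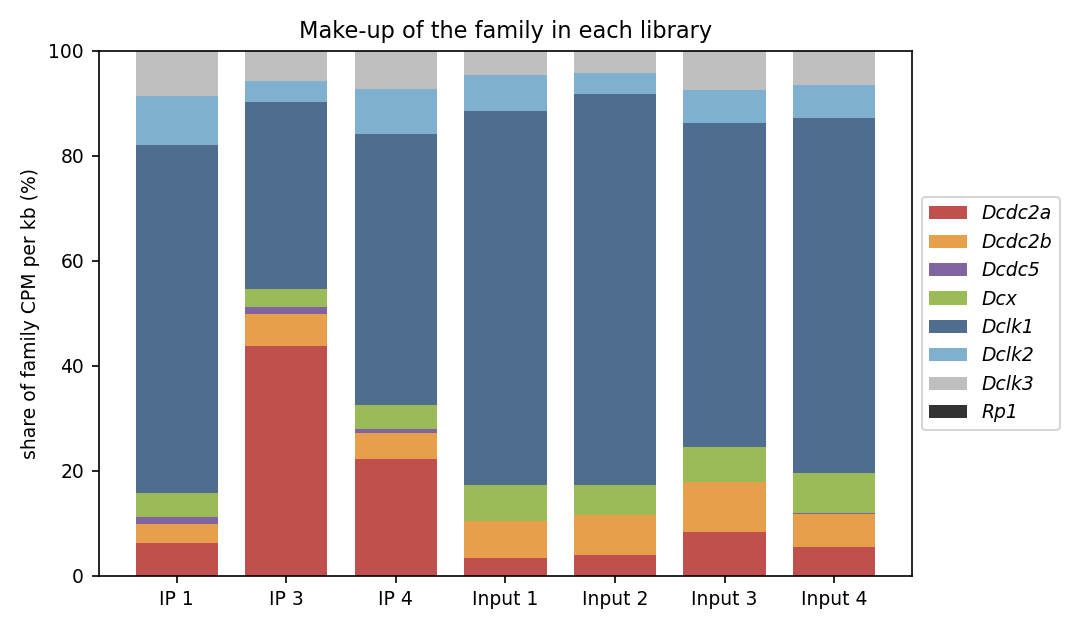
Share of each member in the family's summed CPM per kb, in percent, 1 bar for each library with IP left of Input. Dcdc2a (bottom) takes 43.7% in IP 3 and 22.1% in IP 4, against 3.35% to 8.26% in the Inputs; Rp1 is too small to be seen.

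The genes whose level most resembled each member were found by Pearson's r of log2 CPM over the 7 libraries, among 11196 named genes with a mean of at least 5 CPM. The libraries fall into IP and Input and IP 1 stands apart, so r can follow these differences, and no p is given. How far it does so for each member was not tested. For Dcdc2a these were Efcab2, a calcium-binding protein of the axoneme (r = 0.990), the phosphatase gene Dusp14 (0.989), the prostaglandin reductase gene Ptgr2 (0.986), the collagen chaperone gene Serpinh1 (0.985) and the intraflagellar transport gene Ttc26 (0.983). In all, 416 genes had r above 0.9 with Dcdc2a. For Dcx they were Mme, encoding the peptidase neprilysin (r = 0.996), the dynein adaptor gene Bicd1 (0.987) and Baalc (0.987), and for Dclk1 the synaptic vesicle gene Vamp1 (0.997), the G protein gene Gnao1 (0.992) and Rab6b (0.985). For Dcdc5 they were Dhx34 (r = 0.979), Med25 (0.976) and the ciliary kinase gene Nek1 (0.975), and for Dcdc2b Yae1d1 (0.981), Blcap (0.977) and Timm17a (0.974). Dclk2 and Dclk3 had few close neighbours, with 8 and 11 genes above 0.9. Theirs were Slc8a2 (0.960), Tbc1d13 (0.955) and Pced1a (0.947) for Dclk2, and Rbm3 (0.948), Tgfb2 (0.940) and Tmem165 (0.940) for Dclk3. Between members, r was -0.90 for Dcdc2a with Dclk1, -0.89 for Dcdc5 with Dclk1, -0.81 for Dcdc5 with Dcx and 0.80 for Dcx with Dclk1.

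The genes around Dcdc2a on chromosome 13 were followed next, since transgenes of this kind are commonly carried on long pieces of genomic DNA around the driver gene (the labels do not give the construct). Within 500 kb GENCODE M21 has 11 protein-coding genes, of which 10 were tested. Their median log2 fold was -0.08, with 1 gene higher and 1 lower, where 3.64% of all tested genes were higher and 2.16% lower. Nrsn1, a vesicle protein gene of neurons whose nearer end lies 41.3 kb beyond the end of Dcdc2a (25252040 to 25270502, minus strand), fell. It had 67.9, 45.2 and 48.0 CPM in IP 1, IP 3 and IP 4, against 424, 364, 376 and 353 CPM in Inputs 1 to 4. The log2 fold was -2.82 ± 0.22 (SE; adjusted p = 0.000269 in edgeR), and Nrsn1 was called without any 1 library (largest adjusted p = 0.00516) and with the replicate block (0.00488). It had no overlapping exons in GENCODE M21.

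Fam65b (Ripor2) has its nearer end at -322.2 kb and its own start at -473.8 kb from the Dcdc2a start. It had 161, 207 and 145 CPM in IP 1, IP 3 and IP 4, against 95.9, 90.5, 111 and 99.6 CPM in Inputs 1 to 4. It rose (log2 fold 0.78 ± 0.19 SE, edgeR adjusted p = 0.0416). The call was lost with the replicate block (adjusted p = 0.190), and of the fits that each left out 1 library it held in the one without IP 1 alone. BC005537, at -0.75 ± 0.20 (SE, edgeR adjusted p = 0.0520), had every IP below every Input and was called without IP 1 or without IP 3. The nearest gene upstream, the magnesium transporter gene Mrs2, had a log2 fold of -0.19 ± 0.24 (SE), and it shares 2466 exon bases with Gpld1 (0.09 ± 0.24), so both are uncertain. Aldh5a1, which encodes an enzyme of GABA breakdown, had -0.40 ± 0.28 (SE) and was called lower without IP 1 (edgeR adjusted p = 0.00208). In that fit 9.55% of all tested genes were lower. Aldh5a1 shares 796 exon bases with 4932702P03Rik and 203 with 9330162012Rik, both on the other strand, so its level is uncertain too. D130043K22Rik (0.54), Acot13 (0.13), Tdp2 (0.02) and Gmnn (-0.57) did not pass, the last of these with every IP below every Input. Such a separation, seen for BC005537 and Gmnn here, was found for 10.4% of all tested genes.

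**Figure D5:**
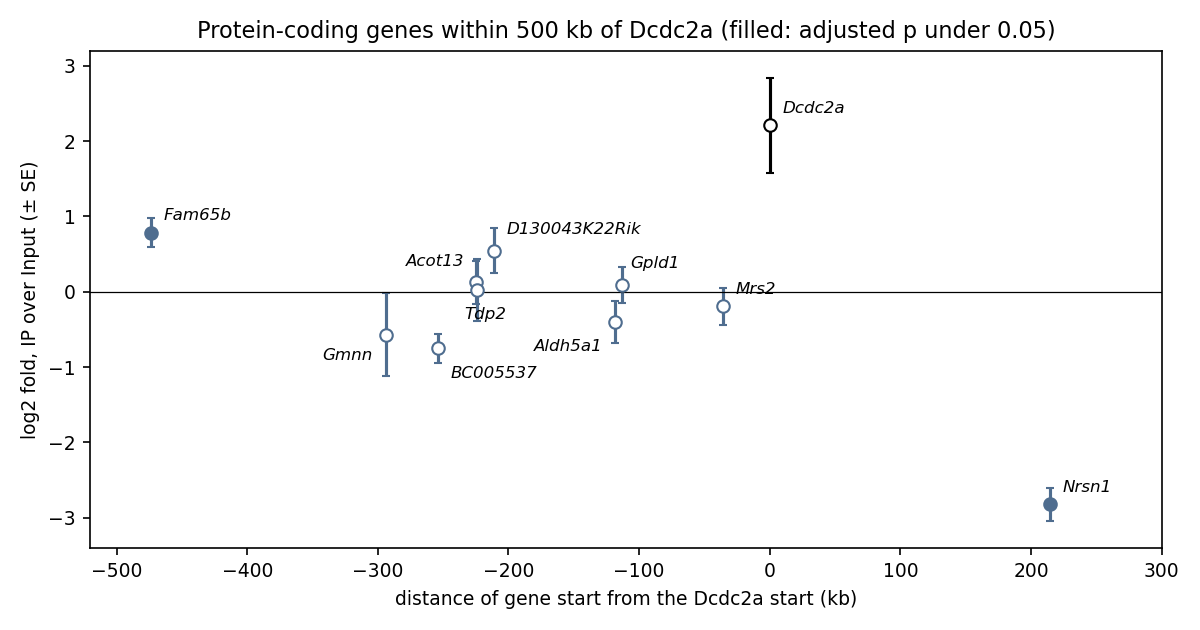
Log2 fold of IP over Input (± SE) for Dcdc2a (black) and the 10 tested protein-coding genes within 500 kb, by the distance of their start from the Dcdc2a start in kb. Filled symbols passed the edgeR adjusted p of 0.05: Nrsn1 at -2.82 and Fam65b at 0.78.

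Of 16 tested genes known beside Dcx in neuronal migration, 1 was higher and 0 lower by edgeR (4 and 3 at an unadjusted p under 0.05, and 2 and 2 by DESeq2), with a median log2 fold of 0.31. By edgeR 3.64% of all tested genes were higher and 2.16% lower. Tuba1a, the alpha-tubulin of young neurons, had 367, 457 and 330 CPM in IP 1, IP 3 and IP 4, against 162, 193, 160 and 130 CPM in Inputs 1 to 4. It rose by 1.26 ± 0.20 (log2 fold, SE, edgeR adjusted p = 0.0129), and its exons share 473 bases with Gm49450. Pafah1b1, which encodes LIS1, had -0.62 ± 0.16 (SE, edgeR adjusted p = 0.0523), and its partner Ndel1 -0.79 ± 0.23 (SE, 0.0721). Both were called lower without IP 1, where the list had 2 genes higher and 4 lower. In that fit 12.5% of all tested genes were higher and 9.55% lower.

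Of 18 genes of neuroblasts and young neurons, 1 was higher and 0 lower (2 and 5 at an unadjusted p under 0.05, 1 and 1 by DESeq2), with a median log2 fold of -0.08. By edgeR 3.64% of all tested genes were higher and 2.16% lower. The gene that rose was Cd24a, a surface protein that ependymal cells also carry, with 22.5, 318 and 216 CPM in IP 1, IP 3 and IP 4, against 8.40 to 12.3 CPM in Input (log2 fold 4.24 ± 0.70 SE, edgeR adjusted p = 0.0169). The stathmin genes Stmn1 (-1.20 ± 0.34 SE, edgeR adjusted p = 0.0689) and Stmn2 (-0.57 ± 0.18 SE, 0.0954) had every IP below every Input, as Dcx and 10.4% of all tested genes did. Without IP 1, Stmn2 (edgeR adjusted p = 0.00455), Sox11 (0.0317) and Elavl3 (0.0309) were called lower, and Cd24a higher. In that fit 9.55% of all tested genes were lower, 12.5% higher and 22.1% in either direction. The list is therefore not read as apart from genes in general.

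Of 27 tested genes of other microtubule-associated proteins, 1 was higher and 3 lower by edgeR, with a median log2 fold of -0.14. At an unadjusted p under 0.05 these were 3 and 8, and by DESeq2 2 and 5. By edgeR 3.64% of all tested genes were higher and 2.16% lower. Every IP lay below every Input for 8 genes of the list and above for 0, beside 10.4% and 9.55% of all tested genes. Map2, of dendrites, had 410, 319 and 352 CPM in IP 1, IP 3 and IP 4, against 767, 802, 800 and 724 CPM in Inputs 1 to 4, and fell by 1.10 on the log2 scale (SE 0.17, edgeR adjusted p = 0.0129). Map4 and Map6d1 fell too, with log2 folds of -1.09 ± 0.17 (SE, edgeR adjusted p = 0.0136) and -1.16 ± 0.26 (SE, 0.0348). Tppp3 rose by 2.54 ± 0.62 (log2 fold, SE, edgeR adjusted p = 0.0473), with 44.6, 450 and 439 CPM in IP 1, IP 3 and IP 4, against 40.5 to 70.4 CPM in Input, so that IP 1 lay inside the Input range. Without IP 1 the list had 2 genes higher and 7 lower, where 12.5% of all tested genes were higher and 9.55% lower.

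Of 12 calmodulin-dependent kinase genes, relatives of the Dclk kinase domain, 1 was higher and 1 lower, with a median log2 fold of 0.05. Among all tested genes 3.64% were higher and 2.16% lower. Stk33 rose by 4.32 ± 1.01 (log2 fold, SE, edgeR adjusted p = 0.0416), with 2.44, 76.8 and 68.9 CPM in IP 1, IP 3 and IP 4, against 0.588 to 3.82 CPM in Input. Camk4, a kinase of neurons, fell by 0.89 on the log2 scale (SE 0.18, edgeR adjusted p = 0.0253). Camk2a, a kinase of excitatory synapses, was at 3558 CPM in IP 1 and at 1061 and 1415 CPM in IP 3 and IP 4, against 1093 to 1452 CPM in Input, and did not pass (log2 fold 0.68 ± 0.36 SE, edgeR adjusted p = 0.302). The fold rests on IP 1, and without it the log2 fold was -0.02 (edgeR adjusted p = 0.949).

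Human DCDC2 is among the genes of nephronophthisis, and the 19 other genes of that disease tested here all had a positive log2 fold (median 0.58), of which 2 rose (8 at an unadjusted p under 0.05). The fold was positive for 53.1% of the tested genes in general, and 3.64% of them were called higher. Without IP 1 the log2 folds of Ttc21b (-0.28) and Anks6 (-0.66) were negative, and the others stayed positive. Zfp423, a zinc finger transcription factor, had 310, 185 and 179 CPM in IP 1, IP 3 and IP 4, against 69.0, 57.1, 62.2 and 70.0 CPM in Inputs 1 to 4. Its log2 fold was 1.80 ± 0.23 (SE, edgeR adjusted p = 0.00801, and 0.0443 with the replicate block). Unlike Dcdc2a it was highest in IP 1. Tmem67, of the transition zone, did not pass (0.88 ± 0.26 SE, edgeR adjusted p = 0.0747), and was called without IP 1 (log2 fold 0.97, edgeR adjusted p = 0.0186). Without IP 1, 5 of the 19 were called higher, where 12.5% of all tested genes were.

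Of 9 other genes named as candidates in human dyslexia, 1 was higher (3.64% of all tested genes were), with a median log2 fold of 0.13. Dyx1c1 (Dnaaf4), an assembly factor of axonemal dyneins, had 3.22, 37.8 and 21.5 CPM in IP 1, IP 3 and IP 4, against 1.35, 1.56, 1.66 and 0.761 CPM in Inputs 1 to 4 (log2 fold 3.96 ± 0.71 SE, edgeR adjusted p = 0.0176). Its exons share 1170 bases with Gm44503 on the same strand. The axon guidance receptor gene Robo1 (0.37 ± 0.20 SE, edgeR adjusted p = 0.298) and D130043K22Rik, the mouse counterpart of KIAA0319 (0.54 ± 0.30 SE, 0.320), did not pass. Over all 6 lists, 7 genes were called higher and 4 lower, where 3.64% of all tested genes were higher and 2.16% lower. Of these 11, Zfp423 alone was called with the replicate block, and without IP 4 or any 1 Input each of the other 10 lost its call. Zfp423 lost it without Input 2, Input 3 or Input 4. Rpl10a, the protein that carries the tag, had 4.84, 4.40 and 7.37 CPM in IP 1, IP 3 and IP 4, against 4.12, 3.42, 4.91 and 8.40 CPM in Inputs 1 to 4 (log2 fold 0.09 ± 0.50 SE, edgeR adjusted p = 0.943). Reads without a unique alignment, which are not in the gene counts, numbered 15925254 (Input 3) to 38604312 (IP 4) per library. Their part in the Rpl10a level was not tested, so that level and fold are uncertain.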

How the data were processed

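RNA was sequenced from 3 IP and 4 Input libraries of tissue around the brain ventricles. The authors deposited whole-number read counts per gene symbol, 1 table for each library, not normalised; per the submitters' processing notes STAR 2.0.0e, HTSeq and build mm10 were used. The sources used here give no settings, annotation or strand. Summary lines for unassigned reads (40.1% to 52.1% of reads) stayed out of library sizes and tests.

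With edgeR 4.0.16 (R 4.3.3), low counts were removed by filterByExpr, at a minimum of 10 and a total of 15, scaling was by TMM, and IP was compared with Input by the quasi-likelihood test (robust, group only). P-values were adjusted by Benjamini-Hochberg over 17375 genes. SE is the log2 fold over the square root of the test statistic. Ratios of single libraries and correlations use log2 CPM with a prior count of 2. DESeq2 1.42.0, other scalings, no filter, a replicate block and leaving out each library were alternatives. The procedure was tested on simulated data. Positions and exon lengths come from GENCODE M21 (GRCm38, the assembly of mm10), sequences from RefSeq (GRCm38.p6).

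The labels put the IP and Input of a number on the same lane (numbers 1, 3 and 4), so the block pairs by lane; deviations of same-numbered libraries correlated across genes at 0.032, 0.043 and 0.026. Nothing says that libraries came from separate animals, so p-values measure the spread between these libraries. The members and lists were chosen with earlier results of these data known. Named were all members, Rpl10a, the 3 genes of smallest p in each list, every tested neighbour, and the 5 (Dcdc2a) or 3 genes most alike; Foxj1, Rarres2, Snap25, Gfap, Mbp, Ttr, Vtn and marker sums served as checks. Tekt1, Tppp3, Sox11, Elavl3, Gad2, Clic6, Otx2, Ttc21b, Anks6 and the pairs of correlated members were chosen after their values were seen. A gene that this rule names is not reported here.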

Additional observations from a re-analysis of the deposited data

Results flagged for a closer look

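Rp1 in the Input libraries was singled out because 1 of the 4 stands off the others: Input 4 had 1 count and Inputs 1, 2 and 3 had 0, so the gap of the highest to the next library was the whole range (a ratio of 1). Chance flags about 1 in 20 groups of normally spread values. Where only 1 library has a count the ratio is always 1, so this flag was fixed in advance. A count of 1 is below the limit of 3 counts that a 0 allows, and the Inputs cannot be told apart at this depth. The other 7 members with counts were not singled out in Input.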

How the results depend on the processing

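Dcdc2a, Dcdc5, Dcx, Dclk1, Dcdc2b, Dclk2 and Dclk3 kept their direction under every alternative run. Under DESeq2 Dcdc2a (log2 fold 2.20) and Dcdc5 (4.61) passed, and with total counts Dcdc5 did (4.68). Dcdc5 entered these tests through the IP libraries, where it is high. Dcx did not pass with total counts (log2 fold -0.72), without the low-count filter (-0.77) or with the replicate block (-0.81). Members called higher numbered 1 with total counts and 2 by DESeq2; members called lower numbered 0 by edgeR with total counts, without the filter and with the block (2, 2 and 1 at an unadjusted p under 0.05; DESeq2 gave 1). Over all genes 1396 were higher and 962 lower by DESeq2, and 96 and 33 with the block, beside 633 and 376. Over the 6 lists 8 were lower by DESeq2, and with the block 1 was higher and 0 lower. Leaving out 1 library at a time gave log2 folds of 1.27 to 2.69 for Dcdc2a, 4.19 to 6.24 for Dcdc5, -0.83 to -0.73 for Dcx and -0.68 to -0.45 for Dclk1. It gave 4 (without Input 3 or Input 4) to 2259 genes higher and 16 (without Input 3) to 1724 lower, 0 to 3 members higher (Dcdc5 and Rp1 among the 3, through the IP libraries where they are high) and 0 to 2 lower, and 0 to 12 genes of the lists higher and 0 to 14 lower, the highest each without IP 1. The ratio of Dcdc2a to the ependymal markers kept its sign, from -3.44 to -2.66, which the rise of the markers sets for most genes. Rpl10a changed sign with the block (-0.038) and ranged from -0.17 to 0.41 without 1 library. The causes were not tested. Total counts moved the median log2 fold of all genes to 0.10, beside 0.06. Fewer than 3 counts in a library, as for Rp1 in Input, cannot be told from 0.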
